A study of Homo sapiens with 12 samples.

Results

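The comparison described here sets the 3 libraries from cells given si-snaR-A#3, an siRNA against the noncoding RNA snaR-A, against the 3 libraries from cells given a scramble siRNA. These 6 libraries are chosen by their labels from the 12 in the series. All cells were HEK293T, a human embryonic kidney line, transfected with siRNA at 12.5 nM with Lipofectamine RNAiMAX and harvested at 48 h. Every group, scramble included, therefore carries a transfected siRNA, and no untransfected cells enter the comparison. The series also holds si-snaR-A#1 and si-snaR-A#2, with 3 libraries apiece, which target the same RNA. As the study lists them, the target sequences of the 3 siRNAs overlap, and that of si-snaR-A#3 nearly equals that of si-snaR-A#2. After depletion of rRNA, samples were enriched for poly(A)+ RNA and made into stranded libraries. The study describes its replicates as biological and handled on a single day. Neither it nor the labels say whether each came from a culture of its own, so p-values measure the spread between these libraries, which may in part be technical. Of 63541 Ensembl gene rows in the deposited table, 21999 passed the expression filter and were tested, and these genes are described here by pathway and by class.

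snaR-A is a short noncoding RNA made by RNA polymerase III that binds the RNA chaperone La, the product of SSB. The study asks what happens to mRNAs when snaR-A is raised or depleted, and the siRNA libraries address the depletion. Several of the pathways below are homeostatic circuits. In the unfolded protein response, ATF6 and spliced XBP1 act on promoters of chaperones of the endoplasmic reticulum (ER) and of the machinery that moves cargo from the ER to the Golgi. In the integrated stress response, phosphorylation of the initiation factor eIF2 favours translation of ATF4, a transcription factor for amino acid synthesis, amino acid transport and tRNA charging.

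Library totals were 129.5 to 159.4 M counts with si-snaR-A#3 and 123.0 to 180.1 M with scramble, so depth limited only genes of low level. Mitochondrial genes took between 4.06% and 5.83% of counts with si-snaR-A#3 and between 4.78% and 6.05% with scramble, and these ranges overlap. Replicates of a group were not identical within sampling noise in any pair of libraries, and chi-square divided by its degrees of freedom ran from 13 to 63 for the pairs. The table has 0 genes with a symbol starting SNAR, so the level of snaR-A and the extent of its knockdown were not read in these libraries. The study followed the knockdown by RT-qPCR, which is not analysed here. Of 19 markers of kidney epithelium 13 were tested, and 3 were called higher and 3 lower, with 2 of the calls over 2-fold. The shares were 23.1% in each direction, beside 16.5% higher and 13% lower over all genes tested. Log2 fold changes over the 13 ran from -1.31 to 1.78, and the gene at 1.78 was not called. Some of these markers thus differed between the groups. Among those tested were the transcription factors PAX2, at 5.79 CPM (counts per M counts of the library) with si-snaR-A#3 and 5.49 with scramble, and GATA3, at 27.1 and 26.4 CPM. Of 13 blood and endothelial markers 7 were tested, with summed levels of 4.75 to 5.28 CPM in the si-snaR-A#3 libraries and 5.14 to 5.43 CPM in the scramble libraries. Of these, 3 had group means between 1 and 2 CPM, KDR and HBA1 among them. SPI1, LYZ, CD14 and VWF had group means of at most 0.141 CPM, and VWF was called lower. Of 10 fibroblast markers 8 were tested, with sums of 35.0 to 36.4 CPM and 38.5 to 41.1 CPM in turn, of which COL1A1 was the highest in both groups.

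The question of the comparison is which transcripts differ in abundance between cells given si-snaR-A#3 and cells given scramble. edgeR's quasi-likelihood test called 6474 genes, which is 29.4% of those tested, at a Benjamini-Hochberg adjusted p under 0.05. Of these, 3619 were higher with si-snaR-A#3 (16.5% of all genes tested) and 2855 were lower (13%). Those percentages and the median log2 fold change over all genes, -0.03, are the background for every gene list below. They take in many genes of low level, and the share called higher grew with level: among protein-coding genes it was 27.2% at 1 CPM or more, 33.2% between 20 and 100 CPM and 41.5% over 100 CPM. The median level of a list is therefore given where its share called higher lies near those values. Under upper quartile scaling the split turned, with 2885 higher and 3874 lower. In 3523 of the higher and 2793 of the lower genes, all si-snaR-A#3 libraries lay on one side of all scramble libraries. In bulk RNA a smaller number of cells of one kind and less RNA in each of them cannot be told apart. Most differences were small, with a median absolute log2 fold change of 0.33 among called genes. At a mean level of 1 CPM or more, 24 genes were called higher by over 2-fold and 63 were called lower by over 2-fold.

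**Figure D1:**
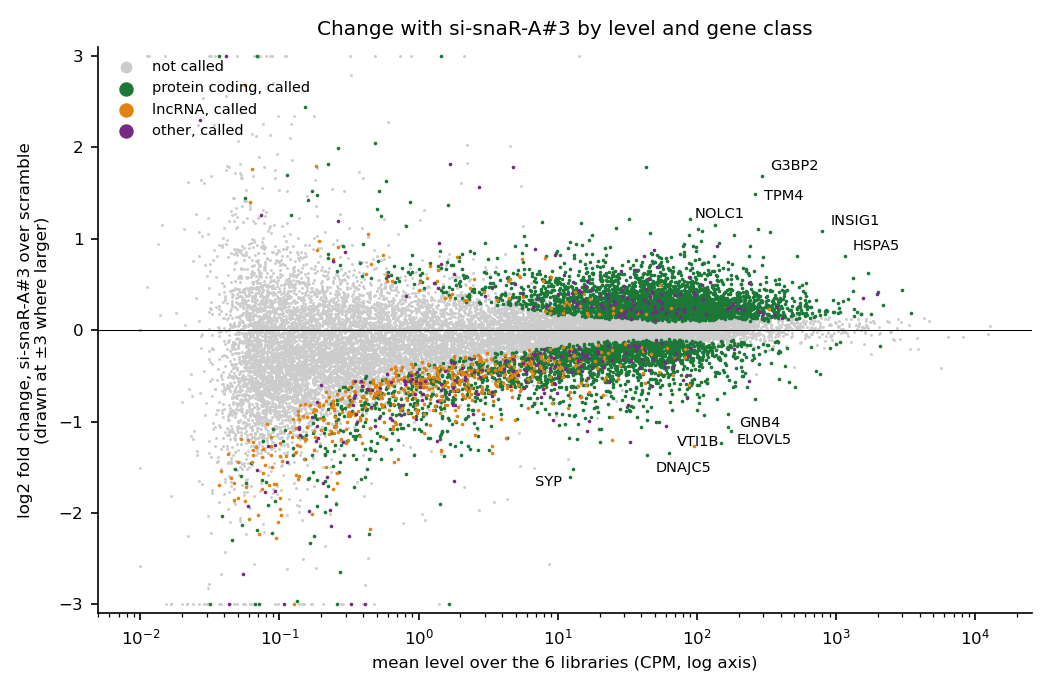
Log2 fold change of si-snaR-A#3 over scramble (y axis, limited to 3 in each direction) against mean CPM over the 6 libraries (log x axis), one point per tested gene, coloured by class for called genes. Higher calls gather at high CPM, while the called lncRNAs lie mostly below 0.

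G3BP2 and TPM4 were among the largest rises. G3BP2, an RNA-binding protein of stress granules (ENSG00000138757, GRCh38 chromosome 4, 75641849 to 75724589), was at 452, 446 and 443 CPM with si-snaR-A#3 and at 137, 140 and 141 CPM with scramble. Its log2 fold change was 1.68 ± 0.04 (SE, n = 3 per group, edgeR adjusted p = 3.8e-10), and the 3 replicates of each group were nearly level. The study itself took up G3BP2, so its rise is not independent evidence. With si-snaR-A#2 G3BP2 was at 448, 444 and 455 CPM, and the direct contrast of the siRNAs was not called (log2 -0.01, edgeR adjusted p = 0.95). TPM4, the actin-filament protein tropomyosin 4 (ENSG00000167460, chromosome 19, 16067021 to 16103002), was at 384, 390 and 390 against 136, 131 and 146 CPM, a log2 fold change of 1.49 ± 0.05. Both genes have an exon that overlaps another annotated gene, and the sources used here do not say whether counting used strand.

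The other large rises also had no overlap between groups. PLEKHB2, a pleckstrin homology domain protein, rose by a log2 fold change of 1.22, the zinc finger gene ZNF267 by 1.21, the sodium bicarbonate cotransporter SLC4A4 by 1.17, the lysine methyltransferase SETD7 by 1.15 and the RNA-binding protein HABP4 by 1.12. NOLC1, a nucleolar phosphoprotein that shuttles snoRNP particles (chromosome 10, 102152176 to 102163871), was at 378, 366 and 377 CPM with si-snaR-A#3 and at 173, 171 and 175 CPM with scramble. Its log2 fold change was 1.11 ± 0.04 (edgeR adjusted p = 6.5e-09), with no scramble library within reach of a si-snaR-A#3 library. BDH1, the mitochondrial 3-hydroxybutyrate dehydrogenase, was less even, at 2.90, 1.39 and 2.78 CPM against 0.883, 0.913 and 0.947 CPM (log2 1.37 ± 0.35, edgeR adjusted p = 0.011). One of its si-snaR-A#3 libraries lay much closer to scramble than the other two. The pseudogenes GTF2IP4 (log2 1.78) and ZNF204P (log2 1.56) were also among the largest rises, and since each shares sequence with related genes, their counts are uncertain.

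The largest falls included genes of secretory vesicles and of endosome fusion. DNAJC5 encodes cysteine string protein, a cochaperone on synaptic and secretory vesicles (ENSG00000101152, chromosome 20, 63895126 to 63936031). It was at 23.8, 24.8 and 24.7 CPM with si-snaR-A#3 and at 60.9, 63.8 and 64.3 CPM with scramble, a log2 fold change of -1.37 ± 0.04 (edgeR adjusted p = 2.0e-09). With si-snaR-A#2 DNAJC5 was at 51.9, 53 and 51.0 CPM, between the other groups, and si-snaR-A#3 was lower than si-snaR-A#2 by a log2 fold change of -1.09 ± 0.04 (edgeR adjusted p = 6.3e-08). VTI1B, a SNARE of endosome fusion (chromosome 14, 67647085 to 67674820), was at 32.4, 38.0 and 36.7 CPM against 86.8, 91.8 and 92.8 CPM with scramble (log2 -1.34 ± 0.06, edgeR adjusted p = 3.9e-08). SYP, the synaptic vesicle protein synaptophysin (chromosome X, 49187815 to 49200218), was at 6.74, 6.36 and 6.81 against 19.1, 18.7 and 19.3 CPM, a log2 fold change of -1.52 ± 0.06 (edgeR adjusted p = 6.5e-09). DNAJC5, VTI1B and SYP all have exons that overlap other annotated genes.

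NEU1, the lysosomal sialidase, had the largest fold decrease among genes at 1 CPM or more with no overlap between groups, but its spread was wide, with 0.696, 0.764 and 0.331 CPM with si-snaR-A#3 and 3.36, 2.35 and 1.02 CPM with scramble (log2 -1.90 ± 0.41, edgeR adjusted p = 0.0035). The scramble libraries themselves ranged over more than the distance between the groups. RIMKLA, an enzyme of N-acetylaspartylglutamate synthesis, fell by 1.61 on the log2 scale, GAS2L1, a linker of actin and microtubules, by 1.31, and TMEM121B and SAMD10, about which less is known, by 1.37 each. ELOVL5, a fatty acid elongase of polyunsaturated chains (chromosome 6, 53267398 to 53349179), was at 106, 111 and 110 CPM where scramble had 222, 233 and 227 CPM (log2 -1.06 ± 0.04, edgeR adjusted p = 9.3e-09). The ELOVL5 libraries of si-snaR-A#2, at 109, 114 and 113 CPM, lay beside those of si-snaR-A#3.

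The early secretory pathway was higher with si-snaR-A#3. Of 34 tested genes of COPI and COPII coats and Golgi traffic, 29 rose (85.3%) and 2 fell, with a median log2 fold change of 0.25. With si-snaR-A#2, 22 of the 34 rose over scramble and 2 fell (median 0.21). With si-snaR-A#1, 3 rose and 18 fell (median -0.13). Directly against si-snaR-A#2, 6 were higher with si-snaR-A#3 and 1 was lower. Of 24 tested ER chaperones and genes of the unfolded protein response, 18 rose and 3 fell, with a median of 0.41. Against scramble this list had 18 higher and 1 lower with si-snaR-A#2 (median 0.33). With si-snaR-A#1 it had 12 higher and 6 lower (median 0.10). In the direct contrast with si-snaR-A#2, 4 were higher with si-snaR-A#3 (2 without si-snaR-A#2 replicate 3) and 3 were lower. HSPA5, the ER chaperone BiP (ENSG00000044574, chromosome 9, 125234853 to 125241382), was at 1425, 1494 and 1503 CPM with si-snaR-A#3 and at 860, 767 and 896 CPM with scramble. Every si-snaR-A#3 library was above every scramble library, and the log2 fold change was 0.81 ± 0.06 (edgeR adjusted p = 9.4e-07). CALR, the calcium-binding lectin chaperone calreticulin, was at 651, 670 and 685 against 374, 376 and 396 CPM (log2 0.81 ± 0.05, edgeR adjusted p = 1.3e-07), and its membrane-bound relative CANX rose by a log2 fold change of 0.66.

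The remaining rises in this list covered chaperones, cochaperones and regulators. DNAJC3, an ER cochaperone, rose by 0.62 on the log2 scale, the disulfide isomerase P4HB by 0.59, the secreted ER factor MANF by 0.52, the degradation factor HERPUD1 by 0.51, and the ER form of HSP90, HSP90B1, by 0.42. The transcription factor ATF6 rose by 0.48 and XBP1 by 0.47, with XBP1 at 143, 148 and 157 CPM against 106, 104 and 112 CPM in scramble. The list did not move as a block. EDEM1, which directs misfolded glycoproteins to degradation, was at 75.4, 75.3 and 69.4 CPM against 104, 95.7 and 93.2 CPM (log2 -0.41 ± 0.05, edgeR adjusted p = 4.3e-05). The sensor kinase ERN1, which splices XBP1 mRNA, fell by 0.28 and the degradation channel subunit DERL1 fell by 0.19.

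Promoter sequence is shown for members of these lists because each list is known for a short element. The motifs were chosen after the calls were seen, and RefSeq promoters on GRCh38.p14 were searched from 250 bases before to 50 bases after the first listed start of each gene, on both strands. The ER stress element, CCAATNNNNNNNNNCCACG, was in 6 of 21 promoters of the ER chaperone list (28.6%) and in 22 of 27305 promoters overall (0.0806%). The genes with it were CALR, CANX, CRELD2, HSP90B1, HSPA5 and XBP1, and all 6 were called higher. Over all 15 tested genes with this element 9 were called higher. The element TGACGTGG, known as the UPR element, was in 7 of 30 promoters of the coat and Golgi list (23.3%) and in 0.795% of all promoters. Those genes were ARF1, COPA, COPB1, COPB2, KDELR3, SEC23A and SEC24A, again all called higher. Over all 130 tested genes with TGACGTGG 34.6% were called higher, beside 21.5% of tested genes without it. A match of letters is a description of the window and no evidence of binding. The capitals below mark the element, and each sequence is read 5′ to 3′ on the strand given. HSPA5 is at chr9:125241376-125241424 (minus strand), CALR at chr19:12938369-12938417 (minus), XBP1 at chr22:28800588-28800636 (minus), SEC24A at chr5:134648595-134648624 (plus) and KDELR3 at chr22:38468039-38468068 (minus).
HSPA5: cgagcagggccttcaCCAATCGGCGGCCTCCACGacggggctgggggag
CALR: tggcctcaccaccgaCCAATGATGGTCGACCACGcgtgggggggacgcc
XBP1: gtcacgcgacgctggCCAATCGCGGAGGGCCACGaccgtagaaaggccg
SEC24A: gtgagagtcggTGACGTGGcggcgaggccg
KDELR3: tggccgggcggTGACGTGGccagggcggcc

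Among the coat and Golgi genes, SEC24D, a cargo adaptor of the COPII coat, was at 102, 109 and 110 CPM with si-snaR-A#3 and at 68.5, 70.5 and 75.0 CPM with scramble (log2 0.59 ± 0.05, edgeR adjusted p = 2.9e-06). The groups were clearly separate, and si-snaR-A#2 was at 102 CPM in each library. The Golgi matrix protein GOLGA2 rose by a log2 fold change of 0.56, and SEC13, shared by the COPII coat and the nuclear pore, rose by 0.50. The coat genes with the element above rose by less: SEC24A by 0.37, the retrieval receptor KDELR3 by 0.30, SEC23A by 0.25, the COPI subunit COPA by 0.22 and the small GTPase ARF1 by 0.19. The only falls were in the small GTPases ARF3 (log2 -0.27) and ARF5 (log2 -0.23). The TMED cargo receptors, a family tallied separately, had 6 of 11 genes higher and 0 lower, with a median log2 fold change of 0.24. Leaving out any single library of the comparison gave between 26 and 29 higher genes for the coat and Golgi list and between 17 and 19 for the ER chaperone list.

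Sterol metabolism was higher in most but not all of its steps. In the cholesterol synthesis list, 15 of 24 tested genes rose and 3 fell, with a median log2 fold change of 0.20. INSIG1, the ER protein that holds back sterol-regulated transcription and is itself a target of it (chromosome 7, 155297776 to 155310235), was at 1004, 1116 and 1111 CPM against 490, 502 and 533 CPM. The INSIG1 groups differed by a log2 fold change of 1.08 ± 0.06 (edgeR adjusted p = 1.9e-07), the largest in the list. FDPS rose by 0.41 and HMGCS1 by 0.32, both enzymes on the path from acetyl-CoA to squalene. SQLE (log2 -0.05) and the transcription factor gene SREBF2 (log2 0.04) were not called. IDI1, the isopentenyl diphosphate isomerase, was at 333, 374 and 365 CPM against 401, 425 and 426 CPM (log2 -0.22, edgeR adjusted p = 0.025), a call that was lost when scramble replicate 2, scramble replicate 3 or si-snaR-A#3 replicate 1 was left out. Against scramble, 16 of the 24 listed genes rose and 1 fell with si-snaR-A#2 (median 0.21). With si-snaR-A#1, 4 rose and 12 fell (median -0.12). Directly against si-snaR-A#2, 3 were higher with si-snaR-A#3 and 4 lower (1 lower without si-snaR-A#2 replicate 2).

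**Figure D2:**
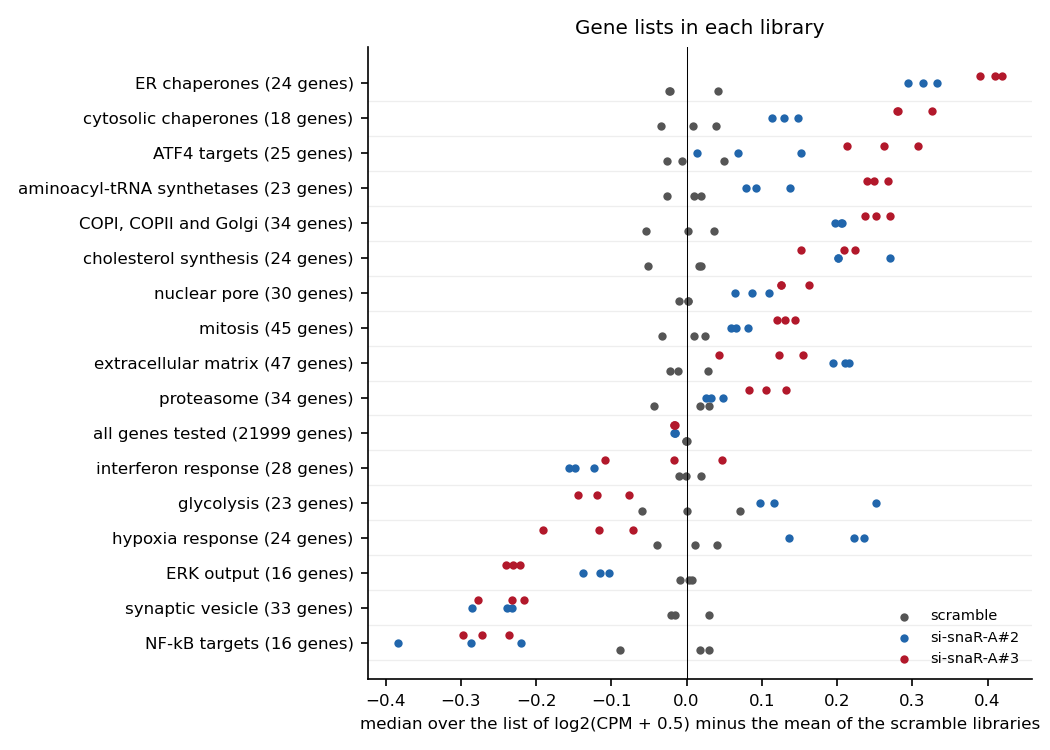
Median over each gene list of log2(CPM + 0.5) minus the scramble mean (x axis), one dot per library for scramble, si-snaR-A#2 and si-snaR-A#3. For the ER chaperone list the si-snaR-A#3 dots lie at 0.39, 0.42 and 0.41 and the si-snaR-A#2 dots at 0.33, 0.31 and 0.29, while for the hypoxia list the siRNAs lie on opposite sides of scramble, with si-snaR-A#3 at -0.19, -0.07 and -0.12 and si-snaR-A#2 at 0.14, 0.24 and 0.22. The si-snaR-A#1 libraries, not drawn, lie at -0.41, -0.30 and -0.49 for the hypoxia list.

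Amino acid metabolism and tRNA charging rose with si-snaR-A#3, and here the direct contrast with si-snaR-A#2 was also positive. That contrast, which sets the libraries of both siRNAs side by side, called 15.6% of all genes, with 9.03% higher in si-snaR-A#3 and 6.52% lower. Of 25 tested ATF4 targets, 16 rose against scramble and 0 fell, with a median log2 fold change of 0.26, and 15 were higher and 1 lower than with si-snaR-A#2, with a median of 0.23. Leaving out any 1 library kept the latter count between 13 and 15, the lowest without si-snaR-A#2 replicate 1. PSAT1, the aminotransferase of serine synthesis (ENSG00000135069, chromosome 9, 78297125 to 78330093), was at 353, 399 and 378 CPM with si-snaR-A#3, 205, 227 and 219 CPM with scramble and 284, 301 and 281 CPM with si-snaR-A#2. All 3 groups of PSAT1 values were separate, with log2 fold changes of 0.80 ± 0.06 against scramble (edgeR adjusted p = 1.6e-06) and 0.39 ± 0.06 against si-snaR-A#2 (edgeR adjusted p = 0.0012). ATF4 mRNA itself was at 611, 603 and 648 CPM against 478, 479 and 504 CPM with scramble and 537, 516 and 547 CPM with si-snaR-A#2, log2 fold changes of 0.35 and 0.22.

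SLC7A11, the cystine transporter of the same list, was at 32.8, 30.1 and 22.2 CPM with si-snaR-A#3, 17, 14.5 and 13.9 CPM with scramble and 16.6, 15.3 and 15 CPM with si-snaR-A#2. The si-snaR-A#2 libraries stayed at the scramble level, and si-snaR-A#3 was higher than either group by log2 fold changes of 0.90 ± 0.12 and 0.86 ± 0.12 (edgeR adjusted p = 1.4e-04 and 5.5e-04). ASNS, asparagine synthetase, was at 210, 270 and 252 CPM against 172, 166 and 176 CPM with scramble and 191, 205 and 181 CPM with si-snaR-A#2 (log2 0.51 and 0.34). The pseudokinase TRIB3 rose by 0.59 against scramble and 0.44 against si-snaR-A#2, the glutathione-degrading enzyme CHAC1 by 0.51 and 0.99, the transsulfuration enzyme CTH by 0.55 and 0.23, and the mitochondrial folate enzyme MTHFD2 by 0.43 and 0.20. The subunits of the large neutral amino acid transporter, SLC7A5 and SLC3A2, rose by 0.25 and 0.20 against scramble and by 0.34 and 0.36 against si-snaR-A#2. The transcription factors ATF3 (log2 -0.08) and DDIT3 (log2 0.15), which are induced when this response is strong, were not called. STC2 was the gene lower than with si-snaR-A#2 (log2 -0.28).

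Of 23 tested cytosolic aminoacyl-tRNA synthetases, the enzymes that charge tRNA with amino acids, 17 rose against scramble and 1 fell, with a median log2 fold change of 0.26. Against si-snaR-A#2, 9 were higher and 1 was lower, and the count of higher genes was 6 without si-snaR-A#2 replicate 2. AARS1, for alanine, was at 439, 440 and 435 CPM with si-snaR-A#3, 308, 305 and 313 CPM with scramble and 401, 388 and 390 CPM with si-snaR-A#2. These AARS1 values did not overlap between any pair of groups (log2 0.50 ± 0.04 and 0.16, edgeR adjusted p = 6.5e-07 and 0.0095). TARS1, for threonine, was at 406, 396 and 414 CPM against 332, 338 and 340 CPM with scramble and 310, 295 and 322 CPM with si-snaR-A#2, and so rose over scramble by 0.27 while si-snaR-A#2 lay below scramble. HARS1 (log2 0.58) and KARS1 (log2 0.55), for histidine and lysine, had the largest rises, and both have exons that overlap a neighbouring gene. The fall was in WARS1, for tryptophan (log2 -0.14), and it was lost under 8 of the alternatives, among them the DESeq2 test; without scramble replicate 2 the list therefore had 0 lower genes.

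The C/EBP-ATF response element, TGATGNAA, is the sequence that ATF4 is known to bind with a C/EBP partner. It was in 6 of 19 synthetase promoters (31.6%), in 4 of 20 promoters of the ATF4 target list and in 3.67% of all promoters searched, or 1.72% of those of tested genes. The synthetases were AARS1, CARS1, IARS1, MARS1, NARS1 and TARS1, and all 6 were called higher against scramble and against si-snaR-A#2. Over all 228 tested genes with TGATGNAA the shares were near those of genes without it, with 24.6% beside 21.5% higher than with scramble and 14.9% beside 11.6% higher than with si-snaR-A#2. CARS1, IARS1, MARS1 and NARS1 rose over scramble by log2 fold changes of 0.38, 0.33, 0.24 and 0.27 and over si-snaR-A#2 by 0.28, 0.26, 0.18 and 0.21. In the ATF4 target list the element was in ASNS, ATF3, CHAC1 and SLC3A2, of which ATF3 was not called. GENCODE annotates an exon of some transcript of the same gene over all 30 bases of each sequence shown. Members from both lists are shown with the element in capitals: AARS1 at chr16:70289675-70289704 (plus strand), IARS1 at chr9:92293692-92293721 (plus) and ASNS at chr7:97872458-97872487 (minus).
AARS1: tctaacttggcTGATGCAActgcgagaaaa
IARS1: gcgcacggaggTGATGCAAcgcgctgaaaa
ASNS: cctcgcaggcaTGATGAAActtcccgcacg

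Cytosolic and mitochondrial chaperones were higher too. Of 18 tested heat shock chaperones, 13 rose against scramble and 1 fell (median log2 fold change 0.30), and 9 were higher and 1 lower than with si-snaR-A#2 (median 0.18, with 6 higher without si-snaR-A#2 replicate 1). HSP90AA1, the inducible cytosolic HSP90, was at 3419, 3400 and 3560 CPM with si-snaR-A#3, 2447, 2597 and 2625 CPM with scramble and 2965, 2854 and 2964 CPM with si-snaR-A#2. Its values ordered the groups with no overlap, at log2 0.44 ± 0.05 over scramble and 0.24 over si-snaR-A#2 (edgeR adjusted p = 5.7e-05 and 0.0087). AHSA1, which activates the HSP90 ATPase, rose by 0.67 and 0.17, the small heat shock protein HSPB1 by 0.61 and 0.36, HSP90AB1 by 0.28 and 0.45, and the constitutive HSP70, HSPA8, by 0.35 and 0.23, each against scramble and si-snaR-A#2 in turn. HSPD1, the mitochondrial chaperonin, rose by 0.63 over scramble and has an exon that overlaps its neighbour HSPE1. DNAJB1, the HSP40 partner of HSP70, went the other way, at 73.8, 76.4 and 80.2 CPM against 86.2, 89.0 and 95.0 CPM (log2 -0.23 against scramble and -0.36 against si-snaR-A#2).

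Of 34 tested proteasome genes, 14 rose and 2 fell against scramble, with a median log2 fold change of 0.12. The share called higher, 41.2% at a median level of 122 CPM, was near the 41.5% of all protein-coding genes over 100 CPM. The base ATPase PSMC3 rose by 0.49, the lid subunit PSMD7 by 0.42 and the activator PSME4 by 0.41. Core subunits fell in both cases of a decrease, PSMB3 by 0.58 and PSMA6 by 0.22.

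**Figure D3:**
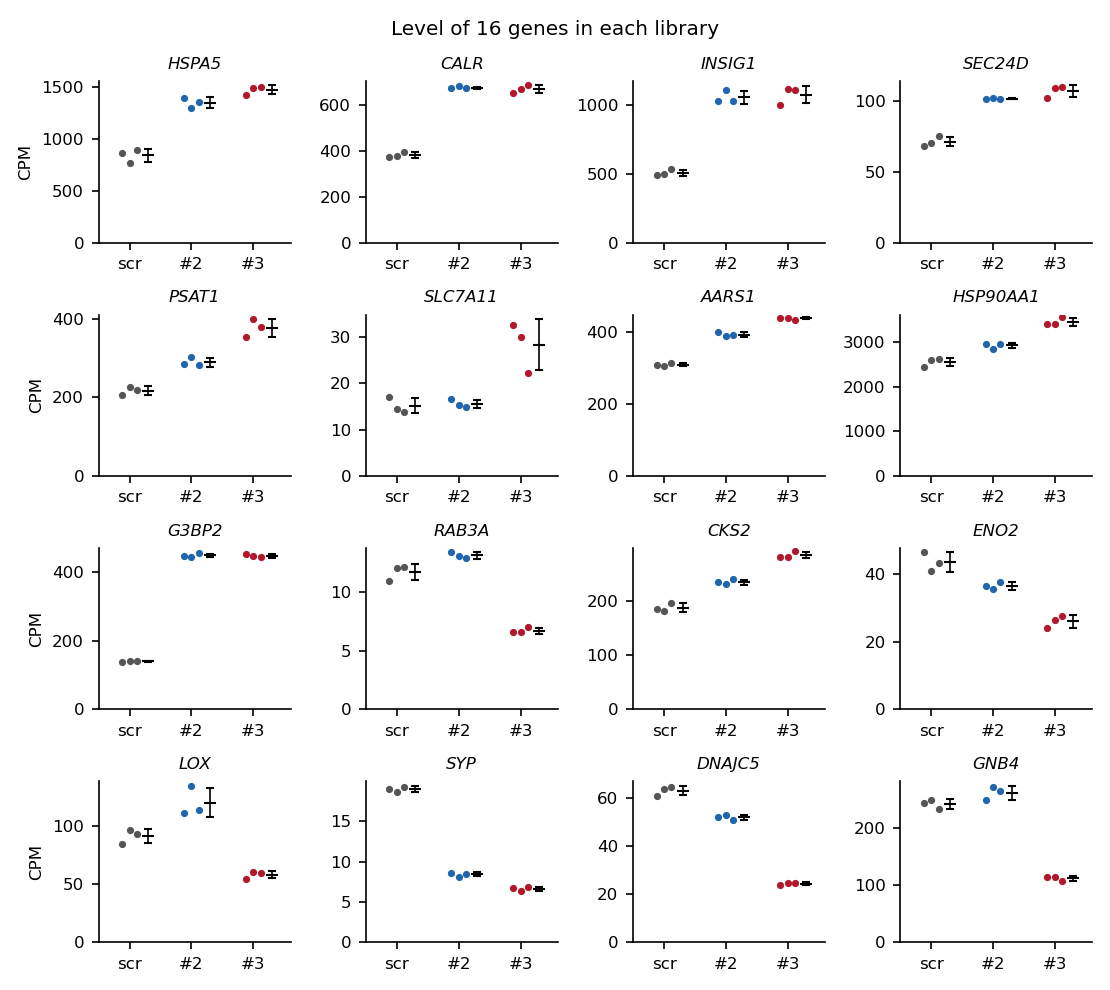
CPM of 16 genes in every scramble, si-snaR-A#2 and si-snaR-A#3 library (dots), with the mean and SD of each group of 3 (black marks) and axes that start at 0. G3BP2 and INSIG1 are high with both siRNAs, while GNB4 and DNAJC5 are lowest with si-snaR-A#3.

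Genes of cell division were also abundant. Of 45 tested genes of mitosis and G2/M, 23 rose (51.1%, at a median level of 147 CPM) and 3 fell against scramble, with a median log2 fold change of 0.13. Against si-snaR-A#2, 14 were higher and 0 lower, although without si-snaR-A#2 replicate 2 only 6 were higher. CKS2, a small subunit of cyclin-dependent kinase complexes, was at 280, 281 and 291 CPM with si-snaR-A#3, 184, 181 and 196 CPM with scramble and 233, 230 and 239 CPM with si-snaR-A#2. The 3 groups of CKS2 values did not overlap, at log2 0.60 ± 0.04 over scramble and 0.28 over si-snaR-A#2 (edgeR adjusted p = 2.9e-07 and 4.0e-04). The mitotic cyclin CCNB2 rose by 0.38, the kinetochore protein CENPF by 0.37, the spindle protein DLGAP5 by 0.33 and the mitotic kinase PLK1 by 0.22, with PLK1 higher than with si-snaR-A#2 by 0.59. The falls were in CDC20, an activator of the anaphase-promoting complex (log2 -0.19), GTSE1 (log2 -0.15) and the chromokinesin KIF4A (log2 -0.13), and the cyclin CCNB1 was not called (log2 -0.06).

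Of 43 tested genes of DNA replication and the G1/S transition, 17 rose and 3 fell, with a median log2 fold change of 0.10. The share called higher was 39.5%, with 22 of the genes over 100 CPM, again near that of protein-coding genes of this level. Leaving out scramble replicate 1 left 11 higher genes, and leaving out scramble replicate 2 left 1 lower gene. RRM2, the small subunit of ribonucleotide reductase, was at 352, 382 and 383 CPM against 256, 251 and 270 CPM (log2 0.52), and the licensing factor CDT1 rose by 0.42. RFC5, a subunit of the clamp loader, went down to 77.9, 80.9 and 81.8 CPM from 119, 121 and 125 CPM with scramble, while si-snaR-A#2 libraries were at 125, 129 and 124 CPM. The fall of RFC5 was thus seen against both groups, by log2 fold changes of -0.60 ± 0.04 and -0.65 (edgeR adjusted p = 4.6e-07 and 9.2e-07), whereas RFC2 of the same complex rose by 0.32. Of 26 nucleotide synthesis genes, at a median level of 163 CPM, 13 rose and 3 fell (median 0.14), and the cytosolic folate enzyme SHMT1 (log2 0.41) and the IMP dehydrogenase IMPDH1 (log2 -0.39) were the extremes. Of 30 nuclear pore genes, at a median level of 108 CPM, 15 rose and 1 fell (median 0.13), with SEC13 (log2 0.50), the mRNA export factor GLE1 (0.40) and NUP35 (0.35) in front and NUP210 (log2 -0.24) as the fall. Replication-dependent histone genes, whose mRNAs mostly lack poly(A) tails and are poorly captured here, had 0 of 36 higher and 4 lower, or 2 lower without scramble replicate 3.

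Glycolysis and the hypoxia response were lower in part with si-snaR-A#3, and more of their genes were called against si-snaR-A#2 than against scramble. Against scramble, 10 of 24 tested hypoxia genes were lower with si-snaR-A#3 and 4 higher (median log2 fold change -0.12), and against si-snaR-A#2, 17 were lower and 0 higher (median -0.35). Of 23 glycolysis genes, 9 were lower and 2 higher than with scramble (median -0.13), and 14 were lower and 1 higher than with si-snaR-A#2 (median -0.27). The medians of si-snaR-A#2 against scramble were 0.23 for hypoxia and 0.16 for glycolysis. In glycolysis, 12 genes were lower and 5 higher with si-snaR-A#1 than with scramble (median -0.18). Directly against si-snaR-A#1, 11 glycolysis genes were higher and 6 lower in si-snaR-A#3. With si-snaR-A#1 the hypoxia list lay further down than with si-snaR-A#3, with 14 genes lower and 4 higher than with scramble (median -0.46), and in the direct contrast 15 were higher and 3 lower in si-snaR-A#3 than in si-snaR-A#1. Without any single library the lower counts against si-snaR-A#2 stayed between 13 and 17 for hypoxia and between 12 and 14 for glycolysis, while the 1 higher glycolysis gene was lost without si-snaR-A#2 replicate 1.

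ENO2, the neuronal enolase, was at 24.0, 26.4 and 27.7 CPM with si-snaR-A#3, 46.6, 41.0 and 43.3 CPM with scramble and 36.4, 35.5 and 37.8 CPM with si-snaR-A#2. Its si-snaR-A#3 libraries lay below all others, by log2 fold changes of -0.74 ± 0.07 against scramble and -0.49 against si-snaR-A#2 (edgeR adjusted p = 5.3e-06 and 4.3e-04). PFKFB4, which makes the activator of phosphofructokinase, was at 23.8, 24.3 and 23.4 CPM against 37.7, 36.8 and 39.1 CPM with scramble and 40.2, 45.7 and 39.0 CPM with si-snaR-A#2 (log2 -0.67 and -0.80). The lactate transporter SLC16A1 fell by 0.54 and 0.40, the glucose transporter SLC2A1 by 0.34 and 0.54, and glucose-6-phosphate isomerase, GPI, by 0.24 and 0.45, against scramble and si-snaR-A#2 in turn. Further down the pathway PGK1 (log2 -0.08) and GAPDH (log2 -0.01) were not called against scramble but were lower than with si-snaR-A#2, by 0.29 and 0.27. PGAM1, phosphoglycerate mutase, and PFKL, liver-type phosphofructokinase, rose over scramble by 0.51 and 0.42, and PFKL was lower than with si-snaR-A#2 (log2 -0.31).

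LOX, lysyl oxidase, which crosslinks collagen and is induced by hypoxia, was at 54.3, 60.7 and 59.3 CPM with si-snaR-A#3, 84.2, 95.8 and 92.4 CPM with scramble and 111, 134 and 114 CPM with si-snaR-A#2. Its siRNA groups lay on opposite sides of scramble, and si-snaR-A#3 was lower by log2 fold changes of -0.64 ± 0.09 and -1.04 ± 0.09 (edgeR adjusted p = 1.2e-04 and 8.2e-06). NDRG1, a stress-induced gene of the same list, was at 345, 380 and 385 CPM against 543, 532 and 572 CPM with scramble and 593, 624 and 574 CPM with si-snaR-A#2 (log2 -0.57 and -0.69). BNIP3, a mitophagy receptor, fell by 0.44 and 0.55, the lipid droplet protein HILPDA by 0.40 and 0.71 and the lysyl hydroxylase PLOD2 by 0.23 and 0.54. Adrenomedullin, ADM, was level with scramble (log2 0.01, not called) and lower than with si-snaR-A#2 by 0.69. The hypoxia genes that rose over scramble were PLOD1 (log2 0.52), the ER oxidase ERO1A (0.42), the carbonic anhydrase CA12 (0.36) and the prolyl hydroxylase P4HA1 (0.33), of which PLOD1, ERO1A and P4HA1 act in the ER on newly made proteins.

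**Figure D4:**
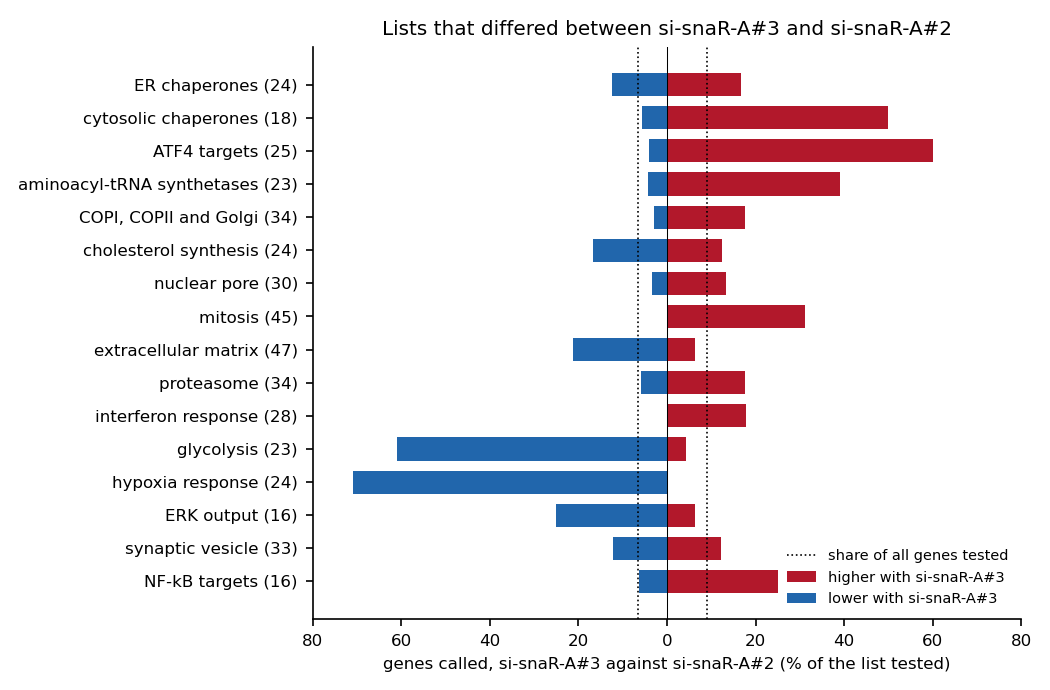
Percent of each gene list called higher (right) or lower (left) in si-snaR-A#3 than in si-snaR-A#2, with dotted lines at the share of all genes, 9.03% higher and 6.52% lower. Hypoxia and glycolysis extend to the left of their line and the ATF4 targets, heat shock chaperones and synthetases to the right of theirs.

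Genes of regulated secretion were lower with si-snaR-A#3. Of 33 tested synaptic vesicle and neurosecretory genes, 15 fell and 1 rose, with a median log2 fold change of -0.37, and 8 of the calls were over 2-fold. Leaving out single libraries gave between 12 and 14 lower genes. SYP and DNAJC5, described above, are among them. The list is of low level, with a median of 4.15 CPM and 24 genes at 1 CPM or more. Of all protein-coding genes between 1 and 5 CPM, 19.2% were lower. With si-snaR-A#2, 15 of the 33 genes were also lower than with scramble and 3 higher (median -0.30). Directly against si-snaR-A#2, 4 of the genes were higher with si-snaR-A#3 and 4 lower. RAB3A, the vesicle GTPase, was at 6.56, 6.56 and 7.0 CPM with si-snaR-A#3, 10.9, 12.1 and 12.1 CPM with scramble and 13.4, 13.1 and 12.9 CPM with si-snaR-A#2. It was lower than both by log2 fold changes of -0.80 ± 0.06 and -0.97 (edgeR adjusted p = 1.3e-06 and 1.1e-06). SCAMP5, a secretory carrier protein, was at 8.74, 8.57 and 7.83 against 18.1, 19.6 and 19.7 CPM with scramble (log2 -1.19) and was higher than with si-snaR-A#2 by 0.35. The priming factor UNC13A fell by 1.11, the fusion regulator CPLX1 by 0.68, the calcium sensor relative SYT11 by 0.55 and the vesicle transporter SV2A by 0.33. The gene that rose was SYN2, synapsin 2, from 8.69, 8.59 and 8.88 to 9.98, 10.2 and 10.2 CPM (log2 0.22), and its call was lost without the expression filter.

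Voltage-gated channels, also of low level, had 8 of 30 lower and 5 higher (median log2 fold change -0.15). The sodium channel subunit SCN3B was at 1.04, 0.957 and 1.07 CPM against 2.22, 1.97 and 2.40 CPM (log2 -1.10 ± 0.14, edgeR adjusted p = 1.0e-04). Its potassium channel counterpart in size of change was KCNC1 (log2 -1.01), followed by HCN3 (log2 -0.60) and KCNH2 (log2 -0.55). In the other direction the pacemaker channel gene HCN2 rose by 0.35 and the calcium channel subunit CACNB4 by 0.29.

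Among signalling outputs, the NF-kB target and ERK output lists had more lower than higher genes. Of 16 tested NF-kB targets, 8 fell and 1 rose, with a median log2 fold change of -0.44, and without scramble replicate 1 only 4 fell. The inhibitor TNFAIP3 was at 9.20, 10.4 and 9.86 CPM against 13.6, 12.5 and 14 CPM (log2 -0.44 ± 0.09, edgeR adjusted p = 0.0020), with no overlap. BCL3 fell by 0.44, and mitochondrial superoxide dismutase, SOD2, was the rise (log2 0.33), in a gene whose exons overlap others. The NF-kB list had a median level of 1.97 CPM, with 10 of 16 genes at 1 CPM or more. Of all protein-coding genes between 1 and 5 CPM, 19.2% were lower than with scramble. Against scramble, 8 fell and 1 rose with si-snaR-A#2 (median -0.49), and 2 fell and 4 rose with si-snaR-A#1. Directly against si-snaR-A#2, 4 were higher (2 without scramble replicate 3) and 1 lower (0 without si-snaR-A#2 replicate 1). Of 16 output genes of the ERK pathway, 8 fell and 2 rose, with a median of -0.29, and 5 fell without scramble replicate 3. The ERK list had a median level of 8.38 CPM, and 19.1% of protein-coding genes between 5 and 20 CPM were lower. In the ERK list 5 fell and 2 rose with si-snaR-A#2, and 10 fell and 3 rose with si-snaR-A#1, each against scramble. The ERK phosphatase gene DUSP6 was at 0.574, 0.356 and 0.363 CPM against 1.06, 1.02 and 0.916 CPM (log2 -1.20). DUSP4, of the same family, was at 4.80, 4.88 and 5.00 CPM against 6.27, 6.26 and 6.30 CPM (log2 -0.36), a small but even difference. Cyclin D1, CCND1, rose by 0.23 and the pathway inhibitor SPRED1 by 0.21. Of 24 tested immediate early genes, MYC included, 7 rose and 1 fell, with a median log2 fold change of -0.005. The share called higher, 29.2% at a median level of 21.2 CPM, was near the 33.2% of protein-coding genes between 20 and 100 CPM. EGR1 fell by 0.80 while JUN and MYC rose by 0.48 and 0.31.

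The p53 target list was mixed, with 9 of 25 lower and 6 higher (3 higher without scramble replicate 1) and a median log2 fold change of -0.09. TP53INP1, a stress-induced partner of p53, was at 21.5, 22.8 and 23.4 CPM against 42.0, 40.2 and 39.0 CPM (log2 -0.84 ± 0.04, edgeR adjusted p = 9.0e-08). The RNA-binding protein ZMAT3 fell by 0.70, the cell cycle inhibitor CDKN1A by 0.30 and MDM2, the ligase for p53, by 0.29, while BTG2, TP53I3 and the DNA repair gene XPC rose by 0.39, 0.38 and 0.31. Interferon response genes had 3 of 28 higher and 4 lower with a median of -0.02, close to the background in both directions. The RNA sensor RIGI fell by 1.13 on the log2 scale at 0.774, 0.608 and 1.33 CPM against 1.96, 2.12 and 1.86 CPM, and OAS3 and IFIT1 fell by 0.38 and 0.32, while IFI35, BST2 and IFITM1 rose by 0.83, 0.67 and 0.24.

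HOX genes, the clustered regulators of body axis identity, were looked at after the values were seen, since single members stood among the falls. Of 11 tested HOXA genes 10 fell and 0 rose, with a median log2 fold change of -0.43, and 9 fell without scramble replicate 2. Against the same scramble libraries 9 of the 11 fell with si-snaR-A#2 (median -0.37) and 10 with si-snaR-A#1 (median -0.82), and directly against si-snaR-A#2 2 were higher and 2 lower in si-snaR-A#3. HOXA4 was at 7.16, 7.62 and 7.23 CPM against 18.8, 15.4 and 15.5 CPM (log2 -1.18), and HOXA10 was at 67.9, 71.2 and 75.4 CPM against 102, 109 and 110 CPM (log2 -0.58). HOXA13 was at 65.7, 71.3 and 62.4 CPM with si-snaR-A#3, 102, 108 and 99.8 CPM with scramble and 109, 134 and 108 CPM with si-snaR-A#2, and so was below both (log2 -0.64 and -0.81), one of only 2 HOXA genes lower than with si-snaR-A#2. These HOXA genes have exons that overlap other transcripts of the cluster. In the other clusters 3 of 9 HOXB genes fell and 0 rose, 3 of 9 HOXC genes rose and 3 fell (0 fell without si-snaR-A#3 replicate 2), and 1 of 9 HOXD genes rose and 1 fell (0 fell without scramble replicate 1). HOXD1 (log2 0.57) and HOXC10 (log2 0.46) had the largest rises.

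Extracellular matrix genes moved in both directions, with 19 of 47 higher (12 without si-snaR-A#3 replicate 2) and 5 lower, and a median log2 fold change of 0.14. The share called higher was 40.4% at a median level of 29.1 CPM. COL3A1, a fibrillar collagen, was at 10.8, 10.7 and 9.93 CPM against 5.97, 5.84 and 6.06 CPM (log2 0.81 ± 0.06, edgeR adjusted p = 1.5e-06), and the laminin LAMA4, COL5A2 and COL6A1 rose by 0.71, 0.64 and 0.61. COL1A1, which assembles with many of the same partners, was at 13, 14.5 and 13.4 CPM against 27.0, 24.5 and 24.8 CPM with scramble and 19.7, 21.6 and 19 CPM with si-snaR-A#2 (log2 -0.90 ± 0.06 and -0.56). The fibroblast markers of which COL1A1 and COL3A1 are part had 2 of 8 higher (COL3A1 and LUM) and 2 lower (COL1A1 and PDGFRB), so they did not move together.

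Lysosomal genes had 13 of 36 higher, which is 36.1% at a median level of 59.8 CPM, and 7 lower (median log2 fold change 0.12), and 9 were lower and 3 higher than with si-snaR-A#2, or 1 higher without si-snaR-A#2 replicate 1. The protease cathepsin L, CTSL, was at 29.2, 29.3 and 29.6 CPM with si-snaR-A#3, 55.8, 59.0 and 58.9 CPM with scramble and 45.3, 43.8 and 42.5 CPM with si-snaR-A#2. The groups were well apart, at log2 -0.98 ± 0.04 against scramble and -0.58 against si-snaR-A#2 (edgeR adjusted p = 2.3e-08 and 5.1e-06). GRN, progranulin, was at 29.1, 32.8 and 34.0 CPM against 50.5, 54.8 and 56.5 CPM with scramble and 56.8, 64.4 and 60.2 CPM with si-snaR-A#2 (log2 -0.76 and -0.92). In contrast the hydrolase GLA rose from 306, 313 and 323 to 453, 457 and 481 CPM (log2 0.56), the proton pump subunit ATP6V0D1 rose by 0.48 and the thioesterase PPT1 by 0.43.

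RNA-processing genes, which the study ties to snaR-A, moved less than the secretory lists. The U2 snRNP list had 5 of 12 higher and 1 lower, with a median log2 fold change of 0.09. The share called higher, 41.7% at a median level of 174 CPM, was near that of protein-coding genes of like level. SF3B2 was at 380, 379 and 396 CPM against 290, 273 and 286 CPM (log2 0.44 ± 0.04, edgeR adjusted p = 2.3e-06), its partner PHF5A rose by 0.57 and SF3B5 fell by 0.34. SR proteins and their kinases had 10 of 30 higher and 6 lower (6 higher without scramble replicate 2 and 3 lower without scramble replicate 1), and hnRNP proteins had 8 of 29 higher and 1 lower. Of the proteins that bind snaR-A, SSB (log2 -0.06) was not called, while ILF2 rose by 0.16. Of 7 transcripts besides G3BP2 that the study itself followed up on samples of this kind, and which are therefore no independent evidence, OGFR, MCRIP2 and MTA1 rose by 0.68, 0.53 and 0.23 and 4 were not called.

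Exon junction and decay factors were split. Of 20 nonsense-mediated decay genes, 6 rose and 6 fell, with a median log2 fold change of -0.04. The core helicase EIF4A3 was at 76.8, 75.3 and 83.3 CPM with si-snaR-A#3, 125, 131 and 136 CPM with scramble and 141, 138 and 128 CPM with si-snaR-A#2, and its partner MAGOHB was at 11.9, 13.3 and 14 CPM against 28.5, 29.5 and 25.0 CPM with scramble and 17.5 to 20 CPM with si-snaR-A#2. Both exon junction genes were lowest with si-snaR-A#3, EIF4A3 by log2 fold changes of -0.74 and -0.79 and MAGOHB by -1.08 and -0.49 against scramble and si-snaR-A#2. The translation termination factors ETF1 and GSPT1 rose by 0.39 and 0.33.

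By gene class, the direction of the calls followed biotype and level. Of 15075 protein-coding genes tested, 22.8% were higher and 14.2% lower, while of 4728 lncRNAs 1.33% were higher (63 genes) and 11.1% lower (527 genes), with a median log2 fold change of -0.24 beside 0.02 for protein-coding genes. The lncRNA count leaned on scramble replicate 1: without it 256 lncRNAs were lower and their median was -0.17. Level moves with this difference, since lncRNAs are mostly of low level. Among protein-coding genes 1.61% were higher and 9.32% lower under 1 CPM, 33.2% were higher and 15% lower between 20 and 100 CPM, and 41.5% were higher and 8.09% lower over 100 CPM. The lowest of these bins leaned on scramble replicate 1, without which 25 genes under 1 CPM were higher and 144 lower in place of 42 and 243. At 20 to 100 CPM, 27 of 64 lncRNAs were lower (42.2%; 15 without si-snaR-A#3 replicate 2) and 7 were higher. Among lncRNAs of at least 1 CPM, the 839 with an exon overlap and the 374 without one had medians of -0.17 each.

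LINC02381, a lncRNA beside the HOXC cluster (chromosome 12, 54126019 to 54147485), was at 13.8, 16 and 15 CPM with si-snaR-A#3, 33.4, 35.0 and 34.8 CPM with scramble and 28.0, 31.3 and 29.1 CPM with si-snaR-A#2. It was lowest with si-snaR-A#3, by log2 fold changes of -1.20 ± 0.07 and -0.98 (edgeR adjusted p = 1.0e-07 and 1.8e-06). FGD5-AS1 was at 67.9, 68.9 and 72.0 CPM against 106, 108 and 102 CPM (log2 -0.60 ± 0.04), beside si-snaR-A#2 at 75.5, 73.2 and 72.3 CPM. NIPBL-DT, divergent to the cohesin loader gene, fell by 0.73 and MIR34AHG, host of a microRNA, by 0.85. The snoRNA host GAS5 (log2 -0.04) and the abundant NORAD (log2 0.01) were not called. NEAT1, the scaffold of paraspeckles, was called lower (log2 -1.27 ± 0.37, edgeR adjusted p = 0.022) at 26.5, 49.9 and 91.4 CPM against 183, 84.3 and 135 CPM, but its groups overlapped.

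Within the 12469 protein-coding genes of at least 1 CPM, where 27.2% were higher and 15.3% lower, base composition and length also moved with direction. Genes with a transcript GC content under 40% were 34.4% higher and 11.3% lower, and of 1896 genes over 60%, 353 were higher and 379 lower. Genes over 100 kb were 30.6% higher and 10.2% lower, and those under 5 kb 21.2% higher and 13.8% lower. By chromosome, the share called higher ran from 22.4% on chromosome 19 to 35.0% on chromosome 4. Genes without an intron had 36 of 239 higher and 46 lower. These properties are tied to one another, and their separate parts were not tested. Cytosolic ribosomal protein genes stood apart in how little they moved, with 7 of 81 higher (4 without si-snaR-A#3 replicate 2) and 3 lower, and mitochondrial ribosomal protein genes had 22 of 77 higher and 6 lower. None of 19 genes of the mitochondrial genome was called by edgeR.

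**Figure D5:**
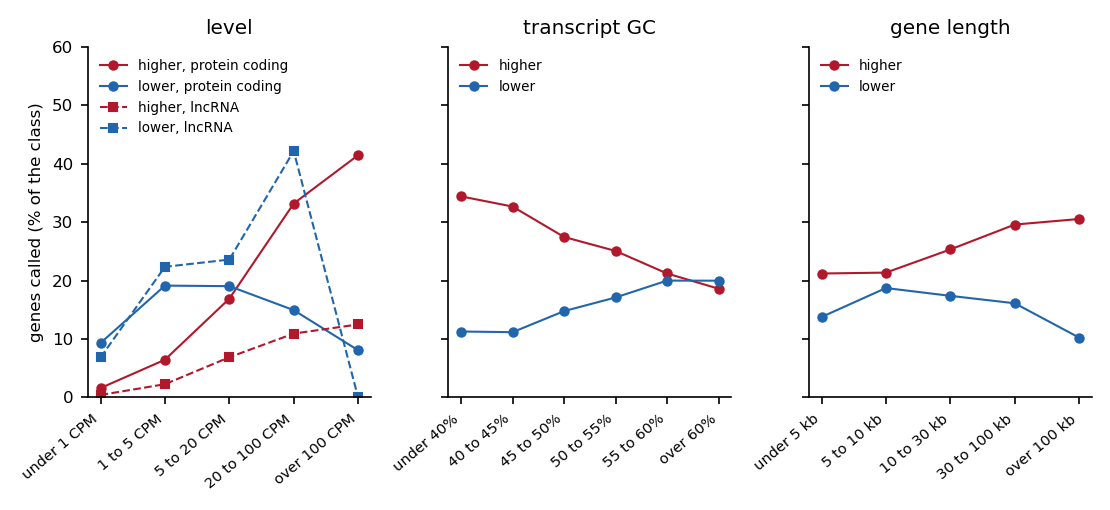
Percent of genes called in each direction with si-snaR-A#3 against scramble, by mean CPM for protein-coding genes and lncRNAs, and by transcript GC content and gene length for protein-coding genes of at least 1 CPM. The share of protein-coding genes called higher grows from 1.61% under 1 CPM to 41.5% over 100 CPM.

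Set against the other siRNAs directly, si-snaR-A#3 was nearer to si-snaR-A#2, whose target sequence is nearly the same, than to si-snaR-A#1 in the number of genes that differed. With si-snaR-A#2 as the reference the test called 3421 genes, 1987 of them higher in si-snaR-A#3 and 1434 lower, and without si-snaR-A#2 replicate 2 it called 2215 (1279 higher, 936 lower). With si-snaR-A#1 as the reference it called 48.6% of genes, 24.8% higher and 23.8% lower. Genes called in the same direction against each of the other 3 groups numbered 582 higher and 469 lower. GNB4, a G protein beta subunit (ENSG00000114450, chromosome 3, 179396088 to 179451476), was at 114, 115 and 106 CPM with si-snaR-A#3, 243, 249 and 232 CPM with scramble and 247, 270 and 264 CPM with si-snaR-A#2. The scramble and si-snaR-A#2 libraries of GNB4 lay together, and si-snaR-A#3 was lower by log2 fold changes of -1.11 ± 0.06 and -1.22 ± 0.06 (edgeR adjusted p = 7.4e-08 and 9.7e-08), and by -1.0 against si-snaR-A#1.

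WASF3, a regulator of actin branching, had the same arrangement, with 34.8, 35.6 and 36.2 CPM against 68.6, 72.8 and 72.5 CPM with scramble and 69.8, 69.7 and 68.5 CPM with si-snaR-A#2 (log2 -1.0 ± 0.04 and -0.96). FSTL1, a secreted glycoprotein, was at 122, 112 and 113 CPM against 208, 231 and 217 CPM with scramble and 202, 231 and 226 CPM with si-snaR-A#2 (log2 -0.92 against each). The divergent transcript SAP30-DT (log2 -1.27 and -1.31) overlaps the SAP30 gene, whose reads could be counted to it. Rises of this kind were smaller: the coiled-coil gene CCDC69 was at 15.8, 15.2 and 14.1 CPM against 9.24, 9.87 and 9.32 CPM with scramble and 10.0, 9.40 and 9.56 CPM with si-snaR-A#2 (log2 0.66 and 0.64). SNCG, gamma-synuclein, was higher by 0.77 and 0.89, and NUPR1, a stress-induced chromatin protein and a known ATF4 target, by 0.74 and 1.21 at levels near 1 CPM. ACP3, prostatic acid phosphatase, was higher by 0.71 and 0.97, a call against scramble that was lost when scramble replicate 1, scramble replicate 2 or si-snaR-A#3 replicate 1 was left out.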

How the data were processed

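Poly(A)+ RNA was sequenced from 12 HEK293T libraries, 3 per group. The authors trimmed reads with TrimGalore 0.6.5 and quantified them with Salmon 1.5.2 against hg38, and deposited estimated counts for each Ensembl gene. Strand settings, how transcripts were summed to genes and whether values were rescaled by transcript length are not given in the sources used here.

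The estimated counts were rounded before every test. Genes were kept with filterByExpr, libraries were scaled with TMM, and all 12 libraries entered 1 edgeR quasi-likelihood model (edgeR 4.0.16, R 4.3.3) with a coefficient per group, so that all groups share the estimate of spread (common biological coefficient of variation 0.117, 8 residual degrees of freedom). Benjamini-Hochberg adjustment was over all 21999 genes, and calls are those with an adjusted p under 0.05. CPM values use TMM library sizes and do not correct for gene length, so levels are compared between libraries and not between genes. Standard errors of log2 fold changes come from the quasi-likelihood F statistic. DESeq2 1.42.0 was an alternative. The scripts were tested on simulated data with known fold changes. Tables and figures were made with Python 3.11.15, pandas 2.3.3, numpy 2.4.6 and matplotlib 3.10.9.

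Of the gene rows, 58160 were in GENCODE release 44, which gave symbols, classes and coordinates on GRCh38, and 5381 were not. Genes were named by rule: the 12 largest rises and the 12 largest falls, up to 3 rises and 3 falls in each gene list, the 6 largest rises and 6 largest falls that differed from all 3 other groups, and 7 genes followed up by the study, where the genes taken by size had at least 1 CPM on average and no overlap between the groups. Further members of the lists are named to describe them and were chosen after their values were seen. The comparison and the gene lists were chosen with earlier results of these data known. Seed matches of the siRNAs were not analysed here. Results for some named genes are not reported here.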

Additional observations from a re-analysis of the deposited data

Results flagged for a closer look

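Some genes were called against scramble with both si-snaR-A#3 and si-snaR-A#2 but in opposite directions, and the 5 whose smaller change was largest are given here with the direct edgeR contrast of the siRNAs, which called each of them. PDXP, pyridoxal phosphatase, was at 25.8, 26.3 and 27.6 CPM with si-snaR-A#3, 35.3, 36.5 and 38.0 CPM with scramble and 53.6, 57.3 and 51.8 CPM with si-snaR-A#2, a log2 difference between the siRNAs of -1.03 (edgeR adjusted p = 9.7e-08). AMPD3, an AMP deaminase, was at 2.06, 1.5 and 1.53 CPM with si-snaR-A#3, 2.56, 2.82 and 2.95 CPM with scramble and 3.56, 3.94 and 3.85 CPM with si-snaR-A#2, a log2 difference of -1.16 (edgeR adjusted p = 7.7e-05). MARVELD2, the tight junction protein tricellulin, was at 7.26, 8.08 and 6.59 CPM with si-snaR-A#3, 4.99, 5.88 and 5.25 CPM with scramble and 4.13, 3.36 and 3.94 CPM with si-snaR-A#2, a log2 difference of 0.94 (edgeR adjusted p = 5.1e-04). H4C14, a histone H4 gene, was at 6.13, 7.93 and 8.61 CPM with si-snaR-A#3, 9.68, 9.93 and 10.5 CPM with scramble and 14.4, 15.1 and 14 CPM with si-snaR-A#2, a log2 difference of -0.942 (edgeR adjusted p = 1.7e-04). LOX, lysyl oxidase, differed between the siRNAs by -1.04 on the log2 scale.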

How the results depend on the processing

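Of 6474 genes called against scramble, leaving out 1 library at a time gave between 4983 (without scramble replicate 1) and 5856 (without si-snaR-A#3 replicate 3), with 2908 to 3356 higher and 2073 to 2500 lower. The alternatives gave 6985 calls with the DESeq2 Wald test, 7050 with a GC content and length trend removed, 6439 with RLE scaling, 6487 with a filter at a mean of 1 CPM, 5897 without a filter, 5931 with the 6 libraries alone, 6486 with values not rounded and 6759 with upper quartile scaling, which lowered the share of higher calls from 55.9% to 42.7% and moved the median of all genes by -0.053. The count of called genes over 2-fold was 342, and 213 with DESeq2 and 98 with the filter at a mean of 1 CPM, since genes of low level leave the test there. Against si-snaR-A#2, the 3421 calls ranged from 2215 (without si-snaR-A#2 replicate 2) to 3380 (without scramble replicate 1) when 1 library was left out, the 1987 higher calls from 1279 to 1928 (1320 without si-snaR-A#2 replicate 3), and the 1434 lower calls from 936 to 1540, the lowest again without si-snaR-A#2 replicate 2. Leaving out the si-snaR-A#2 libraries was chosen after seeing the data. Of 470 values of named genes recomputed 7475 times, 6982 kept their direction and side of the threshold, 493 lost the call, in 90 values, and 0 reversed. Of 63 list medians 12 changed sign under some alternative, and the larger of these were the histone list, at -0.16 and at 0.08 without scramble replicate 3, and the blood and endothelial list, at -0.29 and at 0.01 with the filter at a mean of 1 CPM. The cause of these changes was not tested.

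Replicates share numbers across groups, but the labels do not say that a number marks a shared culture or batch. Deviations of same-numbered si-snaR-A#3 and scramble libraries correlated at 0.158, 0.0398 and 0.173 over 14529 genes. Across unlike numbers the correlations ran from -0.233 to 0.0596, the highest for si-snaR-A#3 replicate 2 with scramble replicate 3. Same-numbered libraries thus tended to correlate more, but not for si-snaR-A#3 replicate 2, so the numbers were not taken to pair the libraries. With the replicate block 6162 genes were called against scramble (3483 higher, 2679 lower) and 3096 against si-snaR-A#2.

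The level of snaR-A was not read in these libraries, and an effect of the siRNA sequence that does not pass through snaR-A cannot be told apart from depletion of snaR-A within 1 siRNA group. Each group has 3 libraries. Counts of overlapping genes are uncertain because the use of strand in counting is not given.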

Other observations

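Zinc handling was a further group that was higher with si-snaR-A#3 and is not described above: 5 of 9 tested genes of metallothioneins and zinc transport rose and 0 fell, with a median log2 fold change of 0.31, and with si-snaR-A#2 the median over scramble was 0.30. The zinc-sensing transcription factor MTF1 rose by 0.44, the importers SLC39A10 and SLC39A6 by 0.42 and 0.28, the metallothionein MT1X by 0.33 and the exporter SLC30A1 by 0.31, while MT2A (log2 -0.18) was not called. A list of secretory membrane proteins had 4 of 22 genes higher (18.2%) and 7 lower (31.8%), with a median log2 fold change of -0.05. Among SNAREs of secretory membranes, STX12, of the recycling endosome, was at 70.7, 67.2 and 69.5 CPM with si-snaR-A#3 and 41.7, 40.1 and 41.4 CPM with scramble (log2 0.75 ± 0.04, edgeR adjusted p = 1.0e-07). STX3, of apical membrane fusion, fell by 0.55. Of 465 tested protein-coding ZNF genes, taken at any level, 103 were higher (22.2%) and 49 lower (10.5%) than with scramble. Over all tested protein-coding genes those shares were 22.8% and 14.2%. Against si-snaR-A#2, 28 ZNF genes were higher and 64 lower. Without si-snaR-A#2 replicate 2 the higher ZNF genes numbered 15, and without si-snaR-A#3 replicate 2 the lower ones numbered 41.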
